A study of Mus musculus with 11 samples.

Results

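The 10 genes described here are components of the mammalian circadian clock, taken by symbol from the gene table: the activators Clock and Arntl (also named Bmal1), the period genes Per1, Per2 and Per3, the cryptochromes Cry1 and Cry2, the REV-ERB genes Nr1d1 and Nr1d2, and the output gene Dbp. All 10 were found among the 21684 genes of the table, and all 10 passed the filter on low counts that left 13332 genes for testing. RNA-seq had been done on NIH/3T3, a long-established mouse fibroblast cell line, kept without serum for 24 h before RNA was taken. The 11 libraries fell into wild type (WT, 2 libraries), Xap5 KO (3), Nono KO (3) and Sox5 KO (3), where KO is a knockout of the named gene. The Xap5 gene has the mouse symbol Fam50a. The labels name no clones and do not say whether replicates were separate cultures, so p-values measure the spread between these samples, which may be technical. All libraries were taken at a single time after serum removal, so a change in level and a shift in phase cannot be told apart.

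CLOCK and ARNTL form a dimer that binds E-box sequences and switches on the Per, Cry, Nr1d1, Nr1d2 and Dbp genes. PER and CRY proteins return to the nucleus and repress that dimer, and the REV-ERB proteins made by Nr1d1 and Nr1d2 repress Arntl, which ROR proteins activate. DBP acts on D-box sequences, which link the Per genes to the same loop. Cultured fibroblasts carry this oscillator in each cell and fall out of step with one another unless a stimulus such as fresh serum resets them. NONO, a nuclear RNA- and DNA-binding protein, is a known partner of PER proteins.

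In Nono KO cells, 6 of the 10 genes differed from WT: Per1 and Per3 rose, and Clock, Nr1d1, Nr1d2 and Dbp fell. Of all tested genes, 48.6% differed from WT in Nono KO, 45.5% in Xap5 KO and 60.9% in Sox5 KO. Per3 and Per1 rose in Xap5 KO cells and the other 8 genes did not pass the test. In Sox5 KO cells Clock fell and Per2 rose. Arntl, Cry1 and Cry2 passed the test against WT in none of the 3 knockouts.

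The promoters of 4 of these genes are shown because they are the genes called in Nono KO that have 1 annotated start. In Nono KO, Per3 was the gene that rose most, and Nr1d1, Nr1d2 and Dbp fell. Whether a motif is linked to the direction of a change was not tested. Promoter windows came from RefSeq on the GRCm38.p6 build, and 9 of the 10 genes had an entry, Per2 being the one without. Each sequence below holds the 250 bases before the annotated start, 5′ to 3′ on the gene's own strand, and capitals mark a match to a D-box or an E-box variant. Per3 lies on the minus strand (chr4:151044666-151044915), as do Nr1d1 (chr11:98775378-98775627) and Nr1d2 (chr14:18239107-18239356), and Dbp lies on the plus strand (chr7:45704997-45705246).
Per3: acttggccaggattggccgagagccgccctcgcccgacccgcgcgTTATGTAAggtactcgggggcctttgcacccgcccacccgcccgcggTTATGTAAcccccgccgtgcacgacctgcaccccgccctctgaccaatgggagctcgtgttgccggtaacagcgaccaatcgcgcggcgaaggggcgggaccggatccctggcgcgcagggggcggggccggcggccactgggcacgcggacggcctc
Nr1d1: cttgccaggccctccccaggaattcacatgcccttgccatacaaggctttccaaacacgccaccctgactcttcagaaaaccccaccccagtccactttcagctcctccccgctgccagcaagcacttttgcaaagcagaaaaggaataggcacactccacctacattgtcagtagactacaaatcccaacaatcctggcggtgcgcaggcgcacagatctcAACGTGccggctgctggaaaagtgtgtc
Nr1d2: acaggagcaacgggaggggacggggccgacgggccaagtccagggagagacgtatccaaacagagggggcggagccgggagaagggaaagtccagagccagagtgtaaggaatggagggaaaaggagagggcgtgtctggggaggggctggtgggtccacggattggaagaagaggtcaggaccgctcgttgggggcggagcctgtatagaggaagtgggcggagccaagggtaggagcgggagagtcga
Dbp: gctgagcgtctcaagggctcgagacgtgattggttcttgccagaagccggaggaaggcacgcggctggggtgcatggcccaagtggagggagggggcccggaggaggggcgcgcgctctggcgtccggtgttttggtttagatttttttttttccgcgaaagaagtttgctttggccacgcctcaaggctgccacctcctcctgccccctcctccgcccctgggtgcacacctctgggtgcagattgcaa

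Motifs were searched on both strands of the whole window of 300 bases, which adds 50 bases after the start, and no 2 matches described here share a base. The Per3 window held 2 copies of the D-box TTATGTAA, beginning at positions -205 and -158 relative to the start. A D-box, written TTATGTAA or TTACGTAA, was present in 1.06% of the 32851 windows in the RefSeq table. Nr1d1 held 1 match to the E-box variant CACGTT, read here as AACGTG on the gene's strand, which 4.68% of all windows held. The canonical E-box CACGTG, present in 7.15% of windows, was found in Per1 and Cry1, and the variant was also found in Cry1 and Cry2. The REV-ERB and ROR response element core TAGGTCA was found at 1 of the 2 Arntl starts, against 2.61% of all windows. No member window held the cAMP response element TGACGTCA, which 1.79% of windows held. Clock, Nr1d2 and Dbp held none of these motifs in their windows, which says nothing about sites elsewhere.

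Levels are given as CPM, counts scaled to a common library size, on library sizes scaled by TMM, a correction for composition. Each library held between 30205878 and 43498383 counts, and mitochondrial genes took 6.20% and 6.28% of them in WT, 7.89% to 10.3% in Xap5 KO, 7.10% to 7.98% in Nono KO and 6.06% to 6.92% in Sox5 KO. Every Xap5 KO and Nono KO library was thus above both WT libraries in this share. Fam50a fell from 62.9 and 64.8 CPM in WT to between 7.49 and 7.91 CPM in Xap5 KO, and Nono fell from 351 and 357 CPM to between 27.6 and 34.0 CPM in Nono KO. Sox5 mRNA stood at 45.9 and 49.7 CPM in WT and between 12.6 and 13.9 CPM in Sox5 KO, but it was as low in Xap5 KO (11.9 to 15.02 CPM) and lower in Nono KO (7.01 to 8.755 CPM), so its level does not set the Sox5 KO libraries apart. The summed level of 11 fibroblast markers, all of them detected, was 24660 to 24800 CPM in WT, 18870 to 20200 CPM in Xap5 KO, 49480 to 54220 CPM in Nono KO and 20920 to 21320 CPM in Sox5 KO. By the test, 3 of the 11 were higher and 5 lower in Xap5 KO, 8 and 0 in Nono KO, and 7 and 3 in Sox5 KO. These were 72.7%, 72.7% and 90.9% of the markers, against 45.5%, 48.6% and 60.9% of all tested genes. Fn1, the largest part of the WT sum, had a mean of 13960 CPM in WT and 6299 CPM in Sox5 KO. Markers of epithelial, endothelial, blood, muscle, adipocyte and neural cells stayed at no more than 10.9 CPM per list in any library, and Krt18 and Myod1 were at 0 counts in all 11. The highest of these sums was that of the 3 blood markers, at 7.255 to 10.9 CPM in Nono KO against 1.91 to 2.28 CPM in WT. The difference came from Ptprc, with means of 0.107 CPM in WT and 6.66 CPM in Nono KO. The mean of Cd68 was 1.99 CPM in both, and Adgre1 was at 0 CPM in WT and 0.0494 CPM in Nono KO. The muscle sum was at most 0.204 CPM in WT, 1.78 to 3.86 CPM in Xap5 KO, 0.974 to 1.16 CPM in Nono KO and 1.48 to 2.17 CPM in Sox5 KO, nearly all from Des, which was at 0 in WT and higher by the test in every knockout. The neural sum was 3.55 to 5.17 CPM in WT, 0.779 to 1.21 CPM in Xap5 KO, 1.75 to 2.56 CPM in Nono KO and at most 0.0678 CPM in Sox5 KO. Fewer cells of a type and less RNA per cell cannot be told apart in such bulk samples, and the part of these markers, and of the mitochondrial share, in the results below was not tested.

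**Figure D1:**
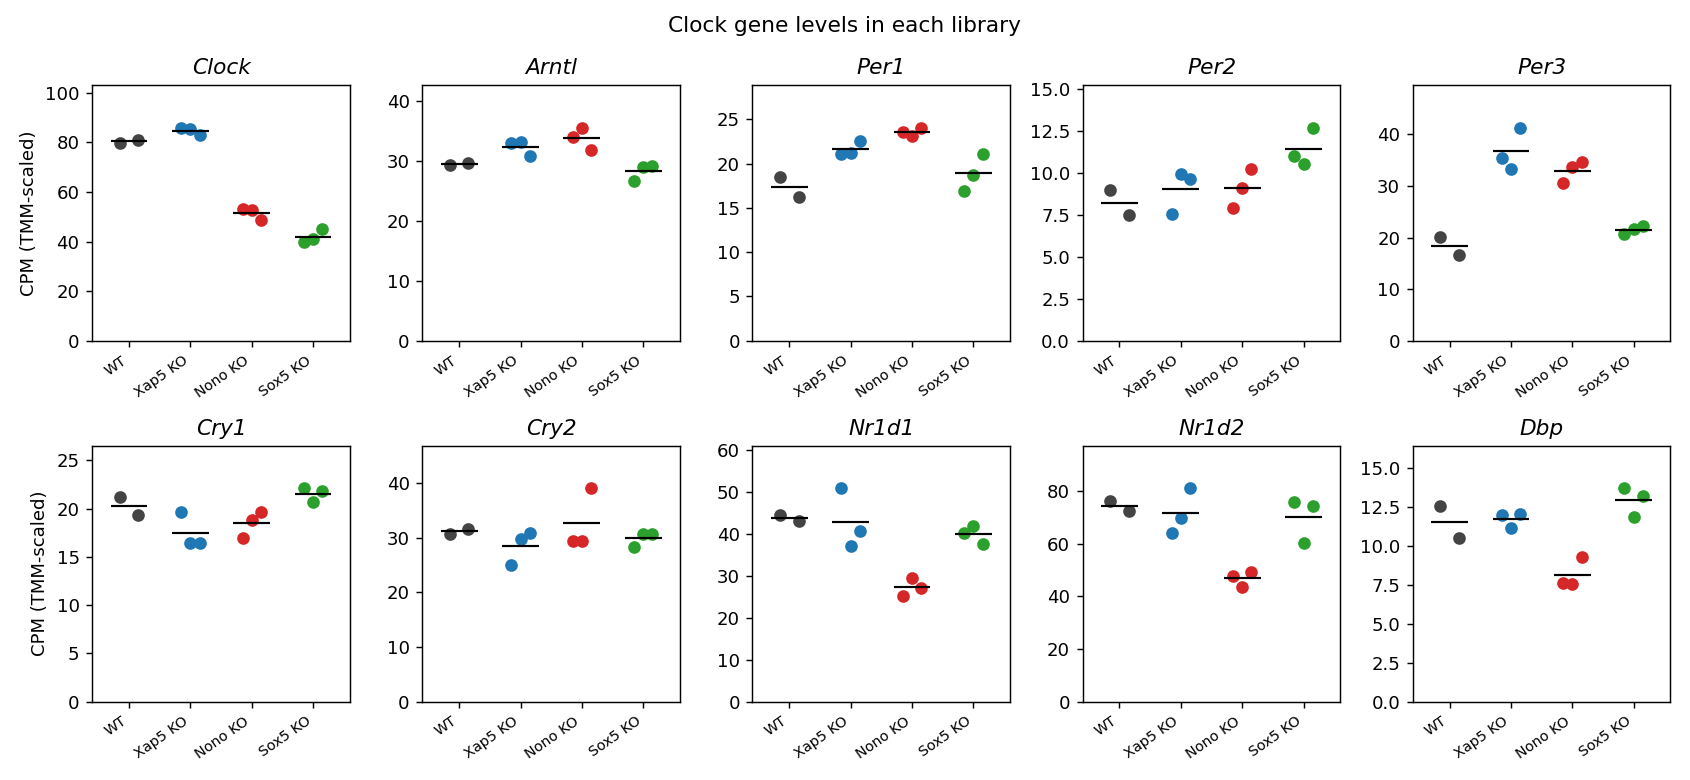
Level of each clock gene in every library. Each panel is 1 gene, points are libraries, short lines are group means, and the vertical axis is CPM from 0. Clock is low in Nono KO and Sox5 KO, Per3 is high in Xap5 KO and Nono KO, and Nr1d1, Nr1d2 and Dbp are low in Nono KO.

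Levels of different genes were compared per kilobase of the longest annotated transcript. In WT, Nr1d1 (16.1 CPM per kb) and Nr1d2 (15.9) stood highest, followed by Clock (8.26), Cry2 (7.83), Arntl (7.39), Cry1 (6.70) and Dbp (6.26). The period genes were lowest, at 3.72 for Per1, 3.06 for Per3 and 1.41 for Per2. Per2 was last in all 4 groups and the 2 REV-ERB genes were first in all 4. In Nono KO the REV-ERB genes stood at 10.0 and 10.1 CPM per kb and Clock at 5.29, behind Arntl (8.45), Cry2 (8.20), Cry1 (6.12) and Per3 (5.49).

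Against WT, the quasi-likelihood test of edgeR, with Benjamini-Hochberg adjusted p over all tested genes, called 6 of the 10 genes in Nono KO and 2 in each other knockout at an adjusted p under 0.05. In Xap5 KO the 2 called genes were both higher, where 45.5% of all tested genes were called, 23.2% higher and 22.3% lower. None was lower in Xap5 KO in the edgeR test, by an unadjusted p under 0.05 or with DESeq2, which gave 0 each. In Nono KO 2 were higher and 4 lower, against 48.6% of all tested genes, 23.5% higher and 25.1% lower. In Sox5 KO 1 was higher and 1 lower, against 60.9% of all tested genes, 30.6% higher and 30.3% lower. With library totals in place of TMM the Sox5 KO split was 0 higher and 2 lower. Over all 13332 tested genes it moved from 4079 higher and 4042 lower to 3340 and 4798. The median size of the log2 change was 0.13 over the 10 genes and 0.32 over all tested genes in Xap5 KO. It was 0.47 and 0.34 in Nono KO, and 0.13 and 0.50 in Sox5 KO. The signed medians of the 10 genes were near 0, at 0.05, -0.03 and 0.01 in the same order. The share of the 10 genes called was 20.0% in Xap5 KO and in Sox5 KO, below the shares over all tested genes, and 60.0% in Nono KO, above it, with no test of these shares. The 3 comparisons use the same 2 WT libraries, so they are not independent of one another.

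**Figure D2:**
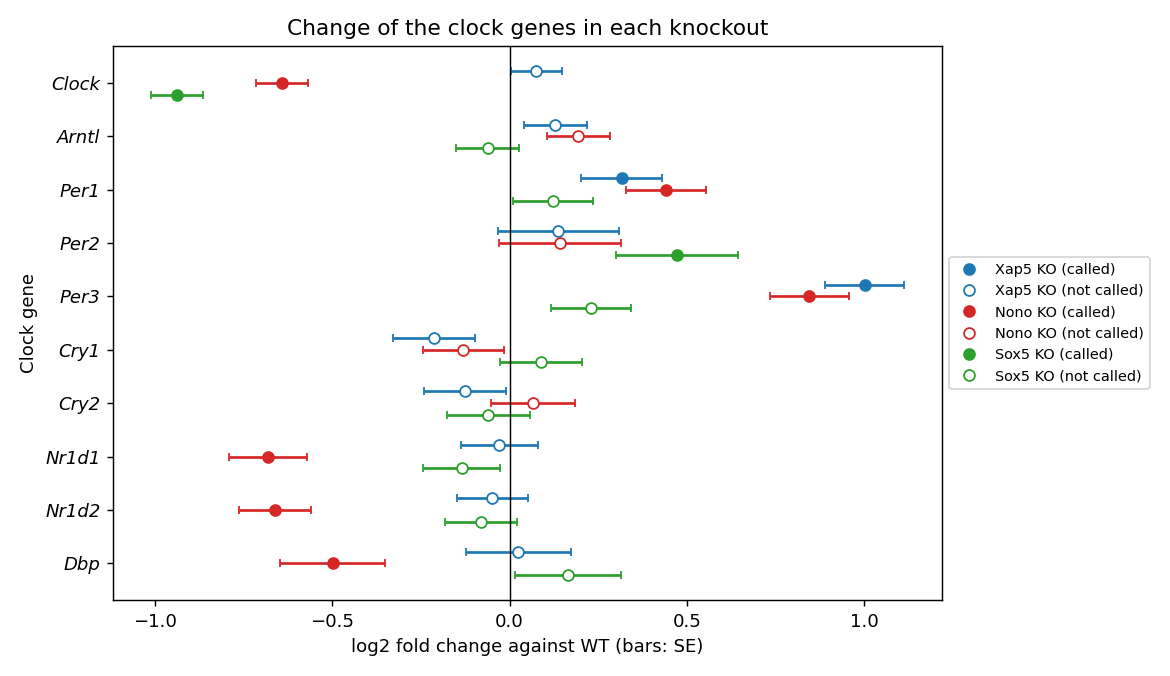
Log2 fold change against WT for the 10 clock genes in the 3 knockouts, with bars of 1 SE. Filled points passed an adjusted p under 0.05 in edgeR, and open points did not. The 4 genes lower in Nono KO lie between -0.68 and -0.50, and Per3 lies at 1.00 in Xap5 KO and 0.85 in Nono KO.

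Clock encodes one bHLH-PAS subunit of the activator dimer. Its level was 79.8 and 81.1 CPM in WT, 86.0, 85.6 and 82.8 CPM in Xap5 KO, 53.3, 52.6 and 48.9 CPM in Nono KO, and 40.0, 40.9 and 45.0 CPM in Sox5 KO. All 3 libraries of Nono KO and of Sox5 KO were below both WT libraries, and the order of group means was Xap5 KO, WT, Nono KO, Sox5 KO. Clock fell by 0.64 on the log2 scale in Nono KO (SE 0.07, edgeR adjusted p = 2.43e-07) and fell by 0.94 in Sox5 KO (SE 0.07, adjusted p = 4.49e-10). On the linear scale it fell by 35.9% and fell by 47.9%, respectively. Xap5 KO and WT did not differ by the test, with a log2 difference of 0.08 (95% interval -0.07 to 0.22, adjusted p = 0.427).

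The Clock result in Sox5 KO moved together with transcript length and base composition. The longest Clock transcript has 9744 bases and a GC content of 40.9%. Among the 626 tested genes with transcripts of at least 6781 bases and a GC content of at most 46.5%, the median log2 change in Sox5 KO against WT was -0.57, and 68.7% were called lower. In the same class the median was -0.06 in Xap5 KO and -0.09 in Nono KO. With an offset that removes each library's trend on length and GC content, the Clock change in Sox5 KO shrank to -0.18 (edgeR adjusted p = 0.0247), while that in Nono KO stayed at -0.56. Whether the trend comes from the cells or from the libraries was not tested.

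**Figure D3:**
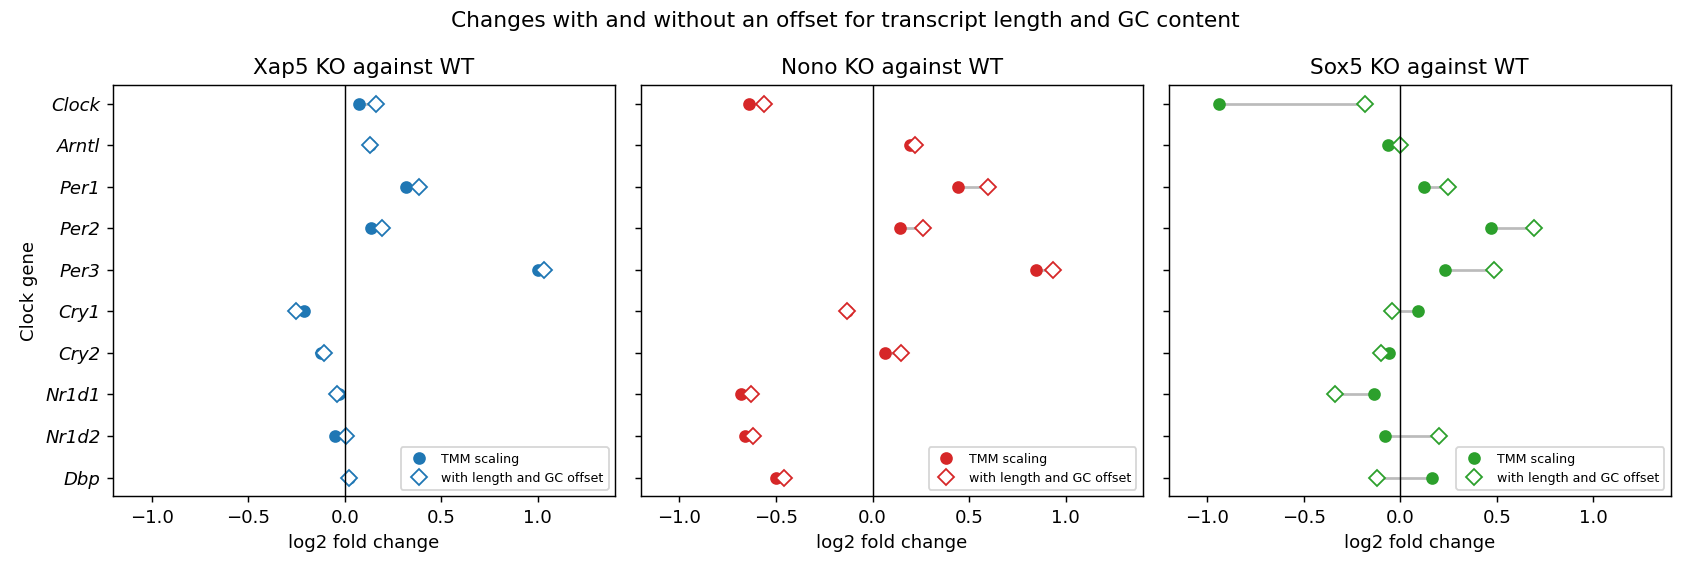
Log2 fold change against WT for each clock gene with TMM scaling (filled circles) and with an added offset for transcript length and GC content (open diamonds). In Sox5 KO the Clock value moves from -0.94 to -0.18 and Per3 from 0.23 to 0.49, and in Nono KO Per1 moves from 0.44 to 0.60.

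Arntl, the partner of Clock, kept a narrow range. It stood at 29.4 and 29.7 CPM in WT, 32.9, 33.1 and 30.8 CPM in Xap5 KO, 33.9, 35.6 and 31.8 CPM in Nono KO, and 26.6, 29.1 and 29.2 CPM in Sox5 KO. The Xap5 KO and Nono KO libraries lay above both WT libraries and the Sox5 KO libraries below, but no difference from WT passed the test. The log2 differences were 0.13 in Xap5 KO (95% interval -0.05 to 0.30), 0.19 in Nono KO (0.02 to 0.37, edgeR adjusted p = 0.0798) and -0.06 in Sox5 KO (-0.24 to 0.11). The Nono KO value passed in edgeR with the length and GC offset (0.22, adjusted p = 0.0396) and without Nono KO replicate 3 (0.24, adjusted p = 0.0481).

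The ratio of the 2 activators within a library does not depend on its depth. Per kilobase, Clock stood at 1.12 times Arntl in both WT libraries and at 1.06 to 1.10 times in Xap5 KO. It was 0.61 to 0.64 times Arntl in Nono KO and 0.58 to 0.63 times in Sox5 KO, below every WT and Xap5 KO library. In Sox5 KO this ratio carries the length and GC trend given above.

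Per3 showed the largest rise of the 10 genes. This period gene is the one least needed for rhythm in mice. It was at 20.0 and 16.6 CPM in WT, 35.5, 33.4 and 41.3 CPM in Xap5 KO, 30.5, 33.7 and 34.7 CPM in Nono KO, and 20.7, 21.7 and 22.2 CPM in Sox5 KO. Every Xap5 KO and Nono KO library was above every WT and Sox5 KO library. Per3 rose 2.00-fold in Xap5 KO (log2 change 1.00, SE 0.11, edgeR adjusted p = 2.59e-07) and 1.80-fold in Nono KO (0.85, SE 0.11, adjusted p = 2.03e-06). Xap5 KO and Nono KO did not differ by the test (0.16, 95% interval -0.03 to 0.34). In Sox5 KO the change of 0.23 (adjusted p = 0.0807) did not pass, though it did with the length and GC offset (0.49, adjusted p = 0.000733) and without WT replicate 1 (0.36, adjusted p = 0.0323).

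Per1 is a period gene that also answers acutely to cAMP and glucocorticoid signals. It was at 18.4 and 16.3 CPM in WT, 21.0, 21.2 and 22.5 CPM in Xap5 KO, 23.5, 23.1 and 24.1 CPM in Nono KO, and 16.9, 18.7 and 21.1 CPM in Sox5 KO. The Xap5 KO and Nono KO libraries were above both WT libraries, while the Sox5 KO libraries overlapped them. Per1 rose by 0.44 on the log2 scale in Nono KO (SE 0.11, edgeR adjusted p = 0.00265) and by 0.32 in Xap5 KO (SE 0.11, adjusted p = 0.0269), and the Sox5 KO value was 0.12 (adjusted p = 0.36). The Xap5 KO call was lost without WT replicate 2 (0.22, adjusted p = 0.256), without Xap5 KO replicate 3 (0.28, adjusted p = 0.0736) and with library totals in place of TMM (0.26, adjusted p = 0.0684). The Nono KO value was 0.28 (adjusted p = 0.0478) with library totals and missed the threshold without WT replicate 2 (0.36, adjusted p = 0.0541).

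Per2, a core repressor of the loop, was the lowest of the 10 per kilobase. It was at 9.01 and 7.49 CPM in WT, 7.57, 9.96 and 9.69 CPM in Xap5 KO, 7.95, 9.11 and 10.2 CPM in Nono KO, and 11.0, 10.6 and 12.7 CPM in Sox5 KO. Sox5 KO was the only knockout with all 3 libraries above both WT libraries, and 2 libraries each of Xap5 KO and Nono KO also lay above them. Per2 rose by 0.47 on the log2 scale in Sox5 KO (SE 0.17, edgeR adjusted p = 0.0229), and the values in Xap5 KO and Nono KO were both 0.14 (adjusted p = 0.548 and 0.528). The Sox5 KO call was lost without WT replicate 2 (0.34, adjusted p = 0.204), without Sox5 KO replicate 3 (0.39, adjusted p = 0.0947) and with library totals (0.36, adjusted p = 0.086). It was larger with the length and GC offset, at 0.70.

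Per1 and Per3 were thus called in Xap5 KO and Nono KO, and Per2 in Sox5 KO. Tested directly, the Per2 difference missed the threshold between Xap5 KO and Sox5 KO (-0.33, edgeR adjusted p = 0.0644) and between Nono KO and Sox5 KO (-0.33, adjusted p = 0.0658). Both passed with the length and GC offset (-0.50, adjusted p = 0.0078, and -0.44, adjusted p = 0.0182). The first also passed without Xap5 KO replicate 2 (-0.41, adjusted p = 0.0497), and the second without Nono KO replicate 3 (-0.42, adjusted p = 0.0363) and with library totals (-0.38, adjusted p = 0.0401). The ratio of Per3 to Per2 per kilobase was 2.16 in both WT libraries, 3.26 to 4.56 in Xap5 KO, 3.29 to 3.735 in Nono KO and 1.69 to 1.995 in Sox5 KO. The summed level of the 3 period genes was 7.54 and 8.83 CPM per kb in WT, 11.7 to 13.4 in Xap5 KO, 11.5 to 12.7 in Nono KO and 8.945 to 10.4 in Sox5 KO.

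**Figure D4:**
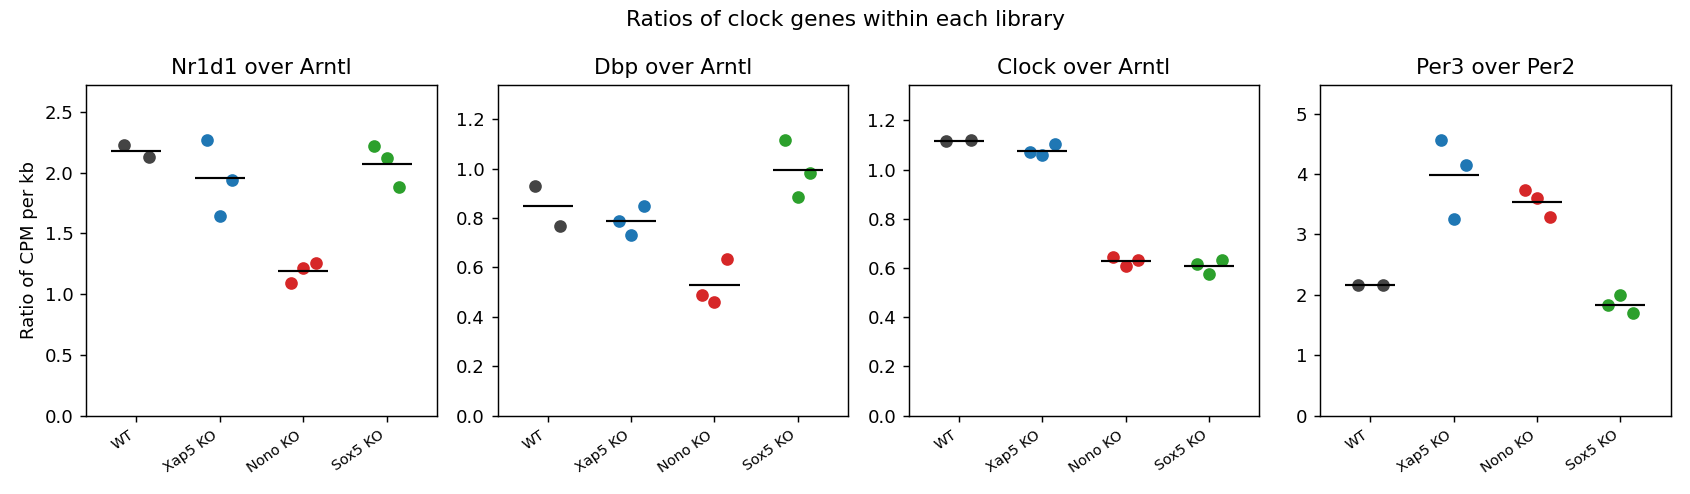
Ratios of clock genes within each library, from CPM per kilobase, with group means as short lines. Nr1d1 over Arntl and Dbp over Arntl are lowest in Nono KO, Clock over Arntl is low in Nono KO and Sox5 KO, and Per3 over Per2 is high in Xap5 KO and Nono KO.

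Cry1 and Cry2 encode the cryptochromes, which repress CLOCK and ARNTL directly. Cry1 ranged from 16.4 CPM in Xap5 KO to 22.1 CPM in Sox5 KO, and from 19.3 to 21.2 CPM in WT. Cry2 ranged from 25.0 CPM in Xap5 KO to 39.0 CPM in Nono KO, and from 30.7 to 31.6 CPM in WT. Neither gene had a knockout whose libraries all lay on 1 side of WT. The Cry1 log2 differences from WT were -0.21 in Xap5 KO (95% interval -0.44 to 0.01), -0.13 in Nono KO (-0.36 to 0.10) and 0.09 in Sox5 KO (-0.14 to 0.32). Those of Cry2 were -0.13 (-0.36 to 0.10), 0.07 (-0.16 to 0.30) and -0.06 (-0.29 to 0.17). Cry1 passed in edgeR in Xap5 KO without Xap5 KO replicate 1 (-0.32, adjusted p = 0.0401) and in Nono KO with library totals (-0.29, adjusted p = 0.034). The high Cry2 value in Nono KO came from replicate 3, the other 2 libraries standing at 29.5 and 29.3 CPM.

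Nr1d1 and Nr1d2 encode REV-ERB alpha and beta, heme-binding nuclear receptors that repress Arntl. Nr1d1 was at 44.5 and 43.2 CPM in WT, 50.9, 37.2 and 40.8 CPM in Xap5 KO, 25.3, 29.5 and 27.1 CPM in Nono KO, and 40.3, 42.0 and 37.5 CPM in Sox5 KO. Nr1d2 was at 76.1 and 72.4 CPM in WT, 64.2, 70.0 and 81.1 CPM in Xap5 KO, 47.9, 43.5 and 49.3 CPM in Nono KO, and 76.0, 60.4 and 74.3 CPM in Sox5 KO. For both genes all 3 Nono KO libraries lay below each of the other 8 libraries. Nr1d1 fell by 0.68 on the log2 scale in Nono KO (SE 0.11, edgeR adjusted p = 2.25e-05) and Nr1d2 fell by 0.66 (SE 0.10, adjusted p = 1.94e-05). On the linear scale Nr1d1 fell by 37.7% and Nr1d2 fell by 36.8%. In Xap5 KO the differences from WT were -0.03 and -0.05 (adjusted p = 0.853 and 0.734), and in Sox5 KO they were -0.14 and -0.08 (adjusted p = 0.298 and 0.519). Nr1d1 passed in Sox5 KO with library totals (-0.25, adjusted p = 0.046) and with the length and GC offset (-0.34, adjusted p = 0.00798).

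Dbp, a PAR bZIP factor and a direct CLOCK-ARNTL target that acts on D-boxes, was at 12.6 and 10.5 CPM in WT, 11.9, 11.1 and 12.03 CPM in Xap5 KO, 7.62, 7.55 and 9.25 CPM in Nono KO, and 13.7, 11.9 and 13.2 CPM in Sox5 KO. The Nono KO libraries were again below each of the other 8. Dbp fell by 0.50 on the log2 scale in Nono KO (SE 0.15, edgeR adjusted p = 0.00798), on the linear scale fell by 29.3%, and the call was lost without WT replicate 1 (-0.36, adjusted p = 0.139). The differences were 0.02 in Xap5 KO (95% interval -0.27 to 0.31) and 0.17 in Sox5 KO (-0.13 to 0.46).

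The REV-ERB genes and Dbp, 3 targets of the activator dimer, were thus lower in Nono KO, while Per1 and Per3 were higher in the same libraries. The ratio of Nr1d1 to Arntl per kilobase was 2.225 and 2.13 in WT, 1.65 to 2.27 in Xap5 KO, 1.09 to 1.25 in Nono KO and 1.89 to 2.22 in Sox5 KO. That of Dbp to Arntl was 0.93 and 0.77 in WT, 0.73 to 0.85 in Xap5 KO, 0.46 to 0.63 in Nono KO and 0.89 to 1.12 in Sox5 KO. Both ratios were lower in every Nono KO library than in any other library.

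Exons of 4 of the genes overlap a gene on the opposite strand in the GENCODE M21 annotation, and how the counting treated strand is not given in the sources used here, so reads from such pairs cannot be told apart. Nr1d1 overlaps Thra, a thyroid hormone receptor gene, which rose by 0.42 on the log2 scale in Nono KO (edgeR adjusted p = 2.45e-05), the opposite direction to Nr1d1. Dbp overlaps Sphk2, a sphingosine kinase gene, which fell by 0.36 in Nono KO (adjusted p = 0.00197), the same direction as Dbp. The partners of Arntl (Gm45355) and Cry2 (D930015M05Rik) were not analysed here. Of the further genes described below, Rora, Bhlhe40, Bhlhe41, Tef, Usp2, Csnk2b, Ppp1ca and Cdkn1a also have such an overlap.

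Between knockouts, edgeR called 4 of the 10 genes higher and 0 lower in Xap5 KO than in Nono KO. Of all tested genes 53% were called, 27.1% higher and 25.9% lower, and the count of lower genes was also 0 at an unadjusted p under 0.05 and with DESeq2. The 4 genes were those that fell in Nono KO: Clock (0.72, SE 0.07, edgeR adjusted p = 9.95e-09), Nr1d1 (0.65, SE 0.10, adjusted p = 1.04e-05), Nr1d2 (0.61, SE 0.09, adjusted p = 1.32e-05) and Dbp (0.52, SE 0.13, adjusted p = 0.00242). The comparison with WT used the same Nono KO libraries, so the results are not independent. The direct test placed these 4 genes lower in Nono KO than in Xap5 KO. Per1 (-0.13, 95% interval -0.32 to 0.07) and Per3 (0.16, -0.03 to 0.34) did not differ by the test between these 2 lines, although Per3 passed with library totals (0.27, adjusted p = 0.0272). Cry2 passed with the length and GC offset (-0.26, adjusted p = 0.0453), which made the split 4 higher and 1 lower.

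Between Xap5 KO and Sox5 KO, 3 genes were higher and 1 lower in Xap5 KO, against 61.6% of all tested genes, 31.1% higher and 30.4% lower. Clock was higher by 1.015 on the log2 scale (SE 0.07, edgeR adjusted p = 3.49e-11) and by 0.35 with the length and GC offset. Per3 was higher by 0.77 (SE 0.10, adjusted p = 6.82e-07) and Arntl by 0.19 (SE 0.08, adjusted p = 0.0453). Cry1 was lower by the test (-0.30, SE 0.10, adjusted p = 0.0159). The Arntl and Cry1 calls were the weakest of these: Arntl missed the threshold on leaving out any 1 of 8 libraries (either WT library, Xap5 KO replicate 1 or 2, Nono KO replicate 1 or any Sox5 KO library) and with DESeq2 (0.18, adjusted p = 0.0658), other size factors (RLE, adjusted p = 0.057), no filter on low counts (adjusted p = 0.0732) and the 2 groups alone (adjusted p = 0.0517). Cry1 missed it without Xap5 KO replicate 2 (-0.26), Xap5 KO replicate 3 (-0.26) or Sox5 KO replicate 1 (-0.28). With the length and GC offset the split was 3 higher and 2 lower, but with other genes: Arntl (0.13, adjusted p = 0.154) and Cry1 (-0.21, adjusted p = 0.0938) were lost, Nr1d1 was called higher (0.30, adjusted p = 0.00906), and Per2 (-0.50) and Nr1d2 (-0.19) were called lower. With library totals it was 4 and 1, Per1 being added (0.25, adjusted p = 0.0379). Over all 13332 tested genes the split was then 4588 higher and 3591 lower, where TMM gave 4151 and 4058.

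Between Nono KO and Sox5 KO, 4 genes were higher and 3 lower in Nono KO, against 63.5% of all tested genes, 30.9% higher and 32.6% lower. The higher genes were Per3 (0.62, SE 0.10, edgeR adjusted p = 1.27e-05), Per1 (0.32, SE 0.10, adjusted p = 0.00904), Clock (0.30, SE 0.07, adjusted p = 0.000563) and Arntl (0.26, SE 0.08, adjusted p = 0.00861). The Clock direction turned with the length and GC offset, to -0.38 (adjusted p = 1.85e-05), and the Per1 call was lost without Sox5 KO replicate 1 (0.24, adjusted p = 0.0608). The lower genes were Dbp (-0.67, SE 0.13, adjusted p = 0.000198), Nr1d2 (-0.58, SE 0.09, adjusted p = 1.65e-05) and Nr1d1 (-0.55, SE 0.10, adjusted p = 5.99e-05). With the offset Dbp stood at -0.34 and Nr1d1 at -0.29, and with either the offset or library totals the split was 4 higher and 5 lower. Over all tested genes the split was 4000 higher and 4139 lower with the offset, and 3781 and 4650 with library totals.

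Further genes were taken from lists of known clock feedback factors, regulators, partners and outputs, and of signal response genes. Their shares called are to be read against 60.9% of all tested genes in Sox5 KO, 48.6% in Nono KO and 45.5% in Xap5 KO, and no list was tested as a set. Among 10 additional feedback factors, 9 were tested, and 3 were higher and 2 lower in Xap5 KO, 3 and 2 in Nono KO, and 4 and 2 in Sox5 KO. These are 55.6%, 55.6% and 66.7% of the list, near the shares over all tested genes. The median log2 change of this list was -0.13, 0.23 and 0.32 in the same order, where the medians over all tested genes were 0.0026, -0.02 and -0.0058. Rora, the nuclear receptor that activates Arntl in opposition to the REV-ERB proteins, was at 33.8 and 30.6 CPM in WT and rose in all 3 knockouts. Its log2 changes in edgeR were 0.71 in Xap5 KO (adjusted p = 6.61e-07), 1.15 in Nono KO (adjusted p = 4.25e-10) and 0.34 in Sox5 KO (adjusted p = 0.00155), the last being 1.16 with the length and GC offset. Bhlhe40 (DEC1), an E-box repressor, fell in each line, from 103 and 105 CPM in WT, by 0.70, 0.77 and 0.73. Bhlhe41 (DEC2), its relative, rose from 20.1 and 16.8 CPM by 0.43, 0.69 and 0.82, the Xap5 KO call being lost without WT replicate 2 (0.29, adjusted p = 0.122). Thus the 2 DEC genes moved in opposite directions in each knockout.

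Npas2, a paralog of Clock, had 232 and 166 counts in WT and 4, 0 and 12 counts in Xap5 KO, a log2 change of -5.10 (SE 0.49, edgeR adjusted p = 1.59e-07). It had 117 to 166 counts in Nono KO and 213 to 247 in Sox5 KO, and neither differed from WT by the test (adjusted p = 0.402 and 0.149). In CPM, all 3 Sox5 KO libraries (6.59 to 7.88) lay above both WT libraries (3.77 and 5.76), a log2 difference of 0.63. This difference passed in edgeR with the 2 groups alone (0.62, adjusted p = 0.0106) and without Xap5 KO replicate 2 (0.62, adjusted p = 0.0479). In Xap5 KO, then, Npas2 was nearly undetected while Clock did not differ from WT by the test. Without WT replicate 2 the number of feedback factors called was 3 in each knockout, and it was also 3 in Sox5 KO without Sox5 KO replicate 1 and in Xap5 KO with a filter of 10 counts in every library. Of 13777 tested genes without WT replicate 2, 2282 were called higher and 2345 lower in Xap5 KO. It was 2548 and 2543 in Nono KO, and 3383 and 3483 in Sox5 KO. Sox5 KO without its replicate 1 had 3789 and 3729 of 13290. Xap5 KO with that filter had 2781 and 2859 of 11332.

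Dbp shares its D-box with 3 further bZIP genes. All 3 were higher in Xap5 KO, and 2 each in Nono KO and Sox5 KO, the remaining values being 0.11 for Tef in Nono KO and 0.15 for Nfil3 in Sox5 KO, and the list's medians were 0.49, 0.80 and 0.41. Over all tested genes 23.2%, 23.5% and 30.6% were called higher in the same order. Hlf, a PAR bZIP activator, was at 1.14 and 0.726 CPM in WT and at 9.69 to 11.1 CPM in Xap5 KO, 16.0 to 20.3 CPM in Nono KO and 40.2 to 44.6 CPM in Sox5 KO. Its log2 changes were 3.46, 4.34 and 5.52 (edgeR adjusted p = 2.78e-12, 4.39e-14 and 8.06e-16). Tef, the third PAR bZIP activator, rose by 0.49 in Xap5 KO and 0.41 in Sox5 KO and did not pass in Nono KO (adjusted p = 0.324). Nfil3 (E4BP4), which represses through the same D-box, rose by 0.80 in Nono KO (adjusted p = 9.9e-05) and 0.42 in Xap5 KO (adjusted p = 0.0226), and the Xap5 KO call was lost without either WT library and without Xap5 KO replicate 1 or 2.

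**Figure D5:**
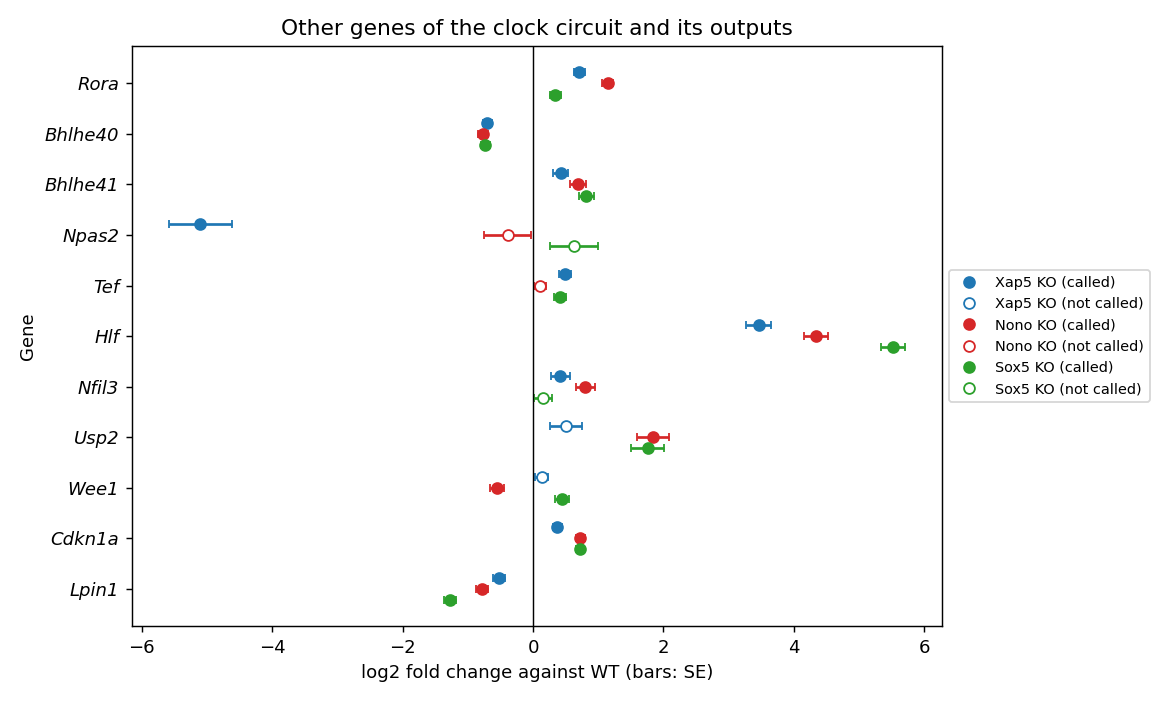
Log2 fold change against WT, with bars of 1 SE, for 11 of the further clock and output genes named in the text. Filled points passed an adjusted p under 0.05 in edgeR. Hlf is far above WT in all 3 knockouts, and Npas2 is far below it in Xap5 KO.

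Among 14 genes for the turnover and modification of clock proteins, 2 were higher and 2 lower in Xap5 KO, 2 and 3 in Nono KO, and 5 and 5 in Sox5 KO, with medians of 0.05, -0.08 and -0.05. The shares called were 28.6%, 35.7% and 71.4%, against 45.5%, 48.6% and 60.9% of all tested genes. Usp2, a deubiquitinase with a rhythmic transcript, rose from 2.01 and 2.29 CPM in WT by 1.84 in Nono KO and 1.76 in Sox5 KO (edgeR adjusted p = 3.36e-06 and 3.62e-06). Its Xap5 KO value of 0.50 did not pass (edgeR adjusted p = 0.108), but did without Xap5 KO replicate 2 (0.66, adjusted p = 0.0443). The kinase gene Gsk3b fell by 1.26 in Sox5 KO (-0.69 with the offset) and rose by 0.19 in each other knockout, calls lost without WT replicate 2 (0.13 and 0.14) and with library totals (0.14 and 0.03), the first also without Xap5 KO replicate 2 or 3 and the second without Nono KO replicate 3. Ppp1ca, a phosphatase subunit gene, rose by 0.88 in Sox5 KO (0.42 with the offset), with values of 0.06 in Xap5 KO and -0.10 in Nono KO, of which the latter passed with the offset (-0.16, adjusted p = 0.0345) and with library totals (-0.27, adjusted p = 0.00118). Csnk2b, a casein kinase subunit gene, rose by 0.60 in Xap5 KO and 0.59 in Sox5 KO, the latter turning to -0.06 with the offset, and stood at 0.19 in Nono KO. With library totals 8 of the 14 were called in Nono KO, 1 higher and 7 lower, against 3 without WT replicate 2. Of 13332 tested genes, library totals called 2157 higher and 4989 lower in Nono KO, where TMM called 3134 and 3342. Without WT replicate 2, 2548 were called higher and 2543 lower of 13777.

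Among 12 partners of the PER and REV-ERB complexes, 4 were higher and 2 lower in Xap5 KO, 2 and 3 in Nono KO, and 4 and 4 in Sox5 KO, with medians of 0.08, -0.07 and -0.05. The list holds Nono itself, so 1 of the 3 lower calls in Nono KO is the targeted gene. The shares called were 50%, 41.7% and 66.7%, against 45.5%, 48.6% and 60.9% of all tested genes. Pspc1, a paralog of Nono, rose from 20.4 and 22.1 CPM in WT to between 50.8 and 54.5 CPM in Nono KO (2.46-fold, edgeR adjusted p = 1.31e-08), and stood at -0.17 in Xap5 KO and at -0.08 in Sox5 KO. Sfpq, the other paralog, stood at 0.10 in Nono KO (adjusted p = 0.151, and 0.0355 with DESeq2), and fell by 0.22 in Xap5 KO and 0.56 in Sox5 KO. Its Nono KO value also passed in edgeR with the 2 groups alone (0.12, adjusted p = 0.0479). Nono itself rose by 0.30 in Xap5 KO and 0.31 in Sox5 KO (0.16, adjusted p = 0.0569, with the offset). In Nono KO the count of called partners was 2 without either WT library and 3 without Nono KO replicate 1, and in Xap5 KO it was 3 without WT replicate 2. Over all tested genes, Nono KO without WT replicate 1 had 2600 higher and 2615 lower calls of 13810. Without WT replicate 2 it had 2548 and 2543 of 13777, and without Nono KO replicate 1 2898 and 3056 of 13255. Xap5 KO without WT replicate 2 had 2282 and 2345 of 13777.

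Of 10 output genes, 8 were tested, and 2 were higher and 3 lower in Xap5 KO, 1 and 3 in Nono KO, and 3 and 3 in Sox5 KO, with medians of -0.08, -0.15 and -0.12. The shares called were 62.5%, 50% and 75.0% of those tested, against 45.5%, 48.6% and 60.9% of all tested genes. Wee1, a cell cycle kinase with E-boxes in its promoter, fell by 0.55 in Nono KO (edgeR adjusted p = 0.000144), as Dbp and the REV-ERB genes did, rose by 0.44 in Sox5 KO and stood at 0.13 in Xap5 KO. Cdkn1a (p21), a repression target of REV-ERB alpha, rose by 0.37 (Xap5 KO), 0.73 (Nono KO) and 0.72 (Sox5 KO line, 0.39 with the offset). Lpin1, a phosphatidate phosphatase gene, changed by -0.52, -0.79 and -1.275. Nampt, the NAD salvage enzyme gene, fell by 0.29 in Xap5 KO and 0.45 in Sox5 KO (-0.16 with the offset), and its Nono KO value of 0.16 did not pass (adjusted p = 0.058, and 0.024 with DESeq2). That value also passed in edgeR with the offset (0.23, adjusted p = 0.00686), the 2 groups alone (0.19) and RLE size factors (0.18). It passed with a filter of 10 counts in every library (0.17) and without Xap5 KO replicate 1 or 3 (0.17 each). Por, cytochrome P450 reductase, rose by 0.43 in Xap5 KO and 0.33 in Sox5 KO (0.14, adjusted p = 0.0641, with the offset) and stood at -0.15 in Nono KO, where it passed with library totals (-0.31, adjusted p = 0.00031) and without Xap5 KO replicate 1 (-0.14, adjusted p = 0.0476). Pparg had 62 and 38 counts in WT, at most 4 in Xap5 KO, 0 in all 3 Nono KO libraries and at most 7 in Sox5 KO. Cdkn2a and Gys2 were at 0 counts in all 11 libraries.

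Among 12 genes of the cAMP, serum and glucocorticoid responses, 6 were higher and 2 lower in Xap5 KO, 3 and 4 in Nono KO, and 2 and 6 in Sox5 KO, with medians of 0.26, -0.11 and -0.26. The shares called were 66.7%, 58.3% and 66.7%, against 45.5%, 48.6% and 60.9% of all tested genes. Srf, the serum response factor, rose in all 3 (0.97, 0.75 and 0.80), and Sgk1, a serum- and glucocorticoid-induced kinase, fell in all 3 (-1.44, -0.20 and -0.36), the Nono KO call for Sgk1 being lost without WT replicate 1 (-0.13, adjusted p = 0.206 in edgeR). Creb1, the cAMP response factor, fell by 0.30, 0.53 and 0.82, the last being -0.14 (adjusted p = 0.0835) with the offset. Nr3c1, the glucocorticoid receptor, rose by 0.38 in Nono KO and stood at -0.08 in Xap5 KO. In Sox5 KO it fell by 0.33, but turned to 0.17 (adjusted p = 0.0168) with the offset. Its target Fkbp5 rose by 0.28 in Xap5 KO and fell by 0.78 in Sox5 KO and fell by 0.58 in Nono KO. The target Tsc22d3 rose by 0.31 in Xap5 KO and 0.80 in Sox5 KO and stood at 0.21 in Nono KO (adjusted p = 0.0593, and 0.0473 with DESeq2). Its Nono KO value also passed in edgeR with RLE size factors (0.22), the 2 groups alone (0.23) and a filter of 10 counts in every library (0.22). It passed as well without Xap5 KO replicate 1 or 3 (0.21 each). The Xap5 KO calls of both targets were lost without WT replicate 1. Sik1, a salt-inducible kinase gene, rose by 0.34 in Xap5 KO, with 0.12 in Nono KO and -0.20 in Sox5 KO not passing, though the Nono KO value passed with the offset (0.22). The Sox5 KO value passed in edgeR with library totals (-0.32), a filter of 10 counts in every library (-0.22) and the 2 groups alone (-0.21). It also passed without Xap5 KO replicate 1 (-0.21), Nono KO replicate 3 (-0.20) or Sox5 KO replicate 1 (-0.25). In Xap5 KO 5 of the 12 were called without WT replicate 1, where 2299 of 13810 tested genes were called higher and 2341 lower.

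For each member, the gene whose log2 CPM followed it most closely over the 11 libraries was sought among 11544 genes with a mean of at least 1 CPM. The libraries form 4 groups, so this Pearson r rests largely on the group means and is given as a description. Clock was nearest to Baz1b (r = 0.99), Dbp to Zfp219 (0.977), Per3 to Bcl2 (0.966), Nr1d1 to Tead2 (0.962), Arntl to Wdr48 (0.956) and Per1 to Faim2 (0.955). Cry1 was nearest to Acyp2 (0.949), Nr1d2 to Rom1 (0.949), Per2 to Tmco6 (0.919) and Cry2 to Stard10 (0.829). Faim2 was low in WT, with a mean of 0.564 CPM. No member was the nearest gene of another member, though r was 0.89 between Nr1d2 and Dbp and 0.857 between Per1 and Per3. Of the 45 pairs of members, 21 had an r above 0, and the median was -0.02. The lowest r was -0.793, between Arntl and Dbp.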

How the data were processed

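The submitters' processing notes name HISAT2 2.1.0, StringTie 1.3.3b, DESeq2 1.12.4 and GRCm39 (mm39), with no roles; the annotation, counting step and strand handling are not given in the sources used here. TRIzol extraction and NEBNext Ultra II library preparation are stated per the labels' protocols. The authors deposited 1 whole-number estimated count per gene and library, treated so because 2 (3302 values) is more frequent than 1 (857 values).

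The 11 libraries were fitted together in edgeR 4.0.16 (R 4.3.3) with TMM factors, a minimum count of 10 and total of 15, the robust quasi-likelihood test and Benjamini-Hochberg adjustment over 13332 genes. Intervals of 95% are normal intervals from the SE, unadjusted. The common coefficient of biological variation was 10.6%. Alternatives were DESeq2 1.42.0, other scalings and filters, 2 groups alone, a replicate block, an offset for length and GC content (from GENCODE M21, GRCm38, for 99.7% of tested genes) and leaving out each library. Alternatives for list genes and the classes of length and GC content were chosen after seeing the data. The members and lists were chosen with earlier results of these data known. From each list, values are given for the 4 genes with the smallest p against WT and for those whose libraries do not overlap WT in all 3 knockouts; 3 of these genes count in their lists but are not reported here. The fit was tested on simulated data.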

Additional observations from a re-analysis of the deposited data

How the results depend on the processing

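Over 19 alternatives other than the 2-fold rule, no called difference of a clock gene from WT changed direction, and 552 of 570 values kept their side of the threshold, 10 losing and 8 gaining a call. Under the 2-fold rule the count of called clock genes against WT was 1 for Xap5 KO and 0 for both Nono KO and Sox5 KO. Between knockouts it was 1 for Xap5 KO against Sox5 KO and 0 for the other pairs. Of 13332 tested genes, the 2-fold rule called 756 higher and 614 lower in Xap5 KO against WT. It called 867 and 624 in Nono KO, and 1106 and 1183 in Sox5 KO. Between knockouts it called 1054 and 941 for Xap5 KO against Sox5 KO. For Xap5 KO against Nono KO it called 699 and 775, and for Nono KO against Sox5 KO 1283 and 986. Against WT, Xap5 KO had 1 called gene with library totals and 1 with the replicate block. Sox5 KO had 1 with the replicate block and 4 with the length and GC offset. Leaving out 1 library gave 1 to 3 called genes for Xap5 KO, 1 to 3 for Sox5 KO, and 2 to 4 for Xap5 KO against Sox5 KO. With the offset, Nr1d2 in Xap5 KO against Sox5 KO turned from 0.03 to -0.19, and Clock in Nono KO against Sox5 KO turned to -0.38. In Sox5 KO against WT, Csnk2b turned to -0.0558 and Nr3c1 to 0.17. The causes were not tested. With library totals the median log2 change over all tested genes was -0.18 for Nono KO and -0.12 for Sox5 KO. Libraries sharing a number deviated together by r of -0.02 to 0.05, so the numbers were not taken as pairs. The block ended the Per1 call in Xap5 KO (0.27) and the Per2 call in Sox5 KO (0.39), as well as the Arntl call in Xap5 KO against Sox5 KO (0.19, edgeR adjusted p = 0.0504) and the Gsk3b calls in Xap5 KO and Nono KO (0.16 each). WT had only 2 libraries, which limits every comparison with it.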
